A study of Rattus norvegicus with 4 samples.

Results

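Transcripts of 10 liver nuclear receptors were followed in RNA sequencing libraries from the livers of 4 wild-type male Wistar rats. The genes were chosen by symbol and comprise *Nr1i3* (CAR), *Nr1i2* (PXR), *Nr1h4* (FXR), *Hnf4a*, *Nr5a2* (LRH-1), *Nr0b2* (SHP), *Rxra*, *Rxrb*, *Esrra* and *Nr2f2* (COUP-TFII). All 10 were among the 16992 annotated genes of the tables. One rat inhaled 4.5% sevoflurane for 6 hours and another inhaled 6% desflurane for 6 hours. Each agent had its own control rat, which inhaled the same mixture and was sacrificed as soon as it lost consciousness. All 4 rats were bought at 6 weeks of age, breathed the agent in an oxygen-enriched flow, and had food withdrawn 2 hours before the experiment. The rats kept under anesthesia for 6 hours were thus without food for longer than the controls, and the duration of anesthesia and the time without food cannot be told apart. Since every condition is a single rat with 1 library, differences cannot be set against a spread between replicates, and no test was made. In the following, the values of an agent are given as a pair, with its control first and the library after 6 hours second.

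Nuclear receptors are transcription factors that bind DNA and, in many cases, change their activity when a small molecule binds to them. In the liver, CAR and PXR respond to drugs and other foreign compounds and switch on cytochrome P450, conjugation and transporter genes, as partners of the retinoid X receptors. CAR is known to be held in the cytosol of hepatocytes and to move to the nucleus on activation, so its transcript level and its activity need not move together. FXR senses bile acids and induces SHP, a receptor without a DNA-binding domain that represses bile acid synthesis, whereas HNF4A and LRH-1 maintain hepatocyte and bile acid genes.

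Levels are given as TPM values, which take transcript length and library size into account. A gene was called upregulated or downregulated when the higher of the compared libraries had a TPM value above 2 and the difference was more than 2-fold, which is the rule of the study. With this rule, 3 of the 10 receptors were called with at least 1 agent. *Nr1i2* was upregulated with desflurane, and *Nr1i3* and *Nr0b2* were downregulated with sevoflurane. Over all genes that reached the TPM limit, the upregulated share was 2.23% with sevoflurane and 2.79% with desflurane, and the downregulated share was 3.3% and 1.48%, respectively. The other 7 receptors stayed within 2-fold across all 4 libraries.

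The 250 bases upstream of the annotated start are shown for the 3 called receptors, so that the regulatory sequence can be read beside the values. They were taken from RefSeq promoters of the GRCr8 build, in which 8 of the 10 receptors had an entry, and are plus-strand sequences written 5′ to 3′. Capitals mark matches, on either strand, to AGGTCA (the nuclear receptor half-site), TATAAA (the TATA box), CACGTG (the E-box) or GGGCGG (the GC box). The motifs do not overlap one another in these windows.
*Nr1i2*, chr11:75965467-75965716: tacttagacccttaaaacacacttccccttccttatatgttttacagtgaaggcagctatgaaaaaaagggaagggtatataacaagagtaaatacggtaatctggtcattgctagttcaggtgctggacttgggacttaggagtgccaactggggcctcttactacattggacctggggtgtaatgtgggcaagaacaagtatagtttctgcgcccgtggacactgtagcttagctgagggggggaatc
*Nr1i3*, chr13:86165170-86165419: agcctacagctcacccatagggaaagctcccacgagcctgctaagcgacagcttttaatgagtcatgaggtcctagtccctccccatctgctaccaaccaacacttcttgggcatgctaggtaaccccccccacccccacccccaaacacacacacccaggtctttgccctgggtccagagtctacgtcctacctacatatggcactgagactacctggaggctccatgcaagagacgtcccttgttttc
*Nr0b2*, chr5:151062910-151063159: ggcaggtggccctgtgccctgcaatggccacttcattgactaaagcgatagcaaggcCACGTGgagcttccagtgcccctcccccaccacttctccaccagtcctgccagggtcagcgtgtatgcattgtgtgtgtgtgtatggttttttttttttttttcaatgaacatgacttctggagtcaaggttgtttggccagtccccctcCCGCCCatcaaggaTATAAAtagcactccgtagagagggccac

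The *Nr0b2* window held a TATA box beginning 29 bases before the start, a GC box on the minus strand and an E-box. The *Nr1i2* and *Nr1i3* windows held none of the 4 motifs, which says only that these letters are absent from these windows. Among all 33469 promoters of the table, 14.1% held the half-site, 12.9% the TATA box, 5.59% the E-box and 30.5% the GC box in the same window. Of the receptors with an entry, only *Nr5a2* held the half-site.

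The levels of the 10 receptors covered a wide range. *Rxra*, the common partner of CAR, PXR and FXR, was the most abundant, with TPM values between 248 and 349 and rank 329 among all genes by mean TPM. *Hnf4a* followed with 199 to 246 and rank 399, and its range lay just below that of *Rxra*. *Nr1i2* (54.2 to 153) and *Nr1h4* (77.3 to 105) overlapped in their ranges, and so did *Nr2f2* (45.7 to 51.2), *Nr5a2* (40.2 to 49.0) and *Nr1i3* (22.7 to 52.9). *Nr0b2* (16.6 to 43.8) overlapped with *Nr5a2* and *Nr1i3* and lay below *Nr2f2*. The ranges of *Esrra* (9.30 to 13.7) and *Rxrb* (6.71 to 8.37) were lower and separate from each other. The read coverage behind these values was between 12.6 for *Rxrb* in the desflurane control and 588 for *Rxra* after 6 hours of desflurane.

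**Figure D1:**
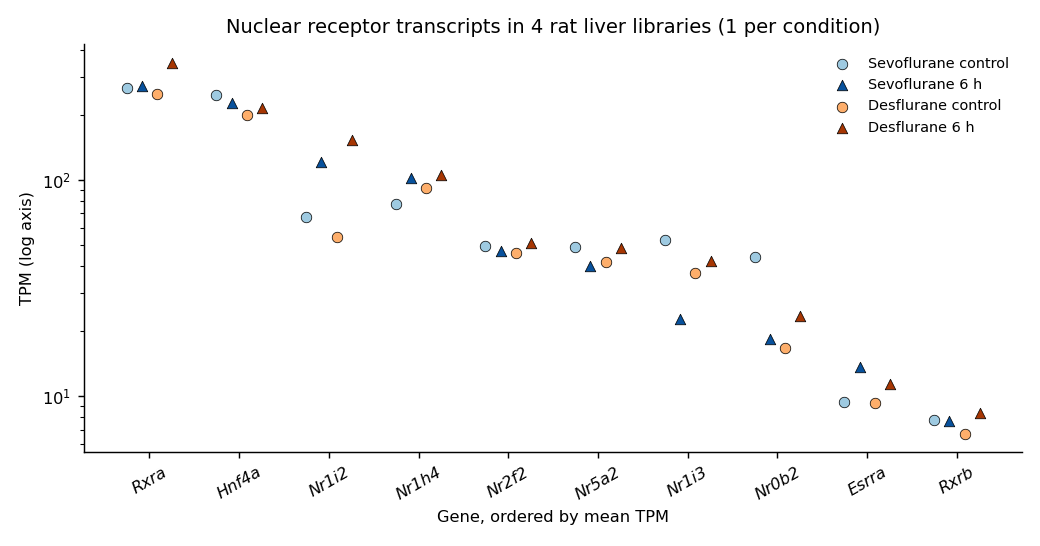
TPM values (log axis) of the 10 nuclear receptor genes, ordered by mean TPM, with 1 point per library. Circles are controls and triangles are 6 hour libraries, sevoflurane in blue and desflurane in orange. The triangles of *Nr1i2* (121 and 153) lie above its circles (67.7 and 54.2), the sevoflurane triangle of *Nr1i3* (22.7) lies below the other three points, and the sevoflurane control of *Nr0b2* (43.8) lies above its other points.

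*Nr1i2* encodes PXR, the xenobiotic receptor with a broad ligand range, and lies on the plus strand of rn6 at chr11:65022100-65058546. Its TPM values were 67.7 and 121 for the sevoflurane pair, and 54.2 and 153 for the desflurane pair. Both 6 hour libraries were above both controls, and the smallest ratio of a 6 hour library to a control was 1.79. Relative to the own control, the level was 1.79-fold higher with sevoflurane, which did not pass the limit, and 2.82-fold higher with desflurane. Against the control of the other agent, the folds were 2.24 for sevoflurane and 2.26 for desflurane, so both passed. In these crossed comparisons, the upregulated share of all genes was 2.52% for sevoflurane and 2.84% for desflurane, and the downregulated share was 2.59% and 1.58%. The controls differed from each other by 1.25-fold, and the 6 hour libraries by 1.26-fold.

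Over all genes with a TPM value above 2 in any library, both 6 hour libraries lay above both controls in 33.3% and below both controls in 13.3%. Of the 10 receptors, 4 were above both controls in this way and 0 were below. These were *Nr1i2*, *Nr1h4*, *Rxra* and *Esrra*, and the other 3 were higher by less than 1.5-fold in each of the 4 possible comparisons.

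*Nr1i3* encodes CAR, the receptor through which phenobarbital-like inducers act on Cyp2b genes, and lies on the plus strand at chr13:89586336-89591278. Its TPM values were 52.9 and 22.7 for the sevoflurane pair, and 37.3 and 42.1 for the desflurane pair. The 6 hour sevoflurane library was the lowest of the 4, and the 6 hour desflurane library lay between the controls. The sevoflurane library was 2.33-fold lower than its own control but 1.64-fold lower than the desflurane control, which is within the limit. Desflurane was 1.13-fold higher than its own control and 1.26-fold lower than the sevoflurane control. After 6 hours, the level was 1.85-fold higher with desflurane than with sevoflurane. Between the 6 hour libraries, 0 of the 10 receptors passed the limits, and 2.76% of all genes were higher and 1.17% lower with desflurane.

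*Nr0b2* encodes SHP and lies on the plus strand at chr5:151776004-151779319. The sevoflurane control had a TPM value of 43.8, whereas the other libraries had 18.4 (6 hours of sevoflurane), 16.6 (desflurane control) and 23.5 (6 hours of desflurane). The control of sevoflurane thus stood apart, and the difference between the controls (2.63-fold) was larger than the difference of either agent from its own control. It was the only receptor past the limits between the controls, where 1.17% of all genes were higher and 1.17% lower. Sevoflurane was 2.39-fold lower than its own control and within the limits of the desflurane control (log2 change of 0.14), so the downregulation rests on that 1 control library. Desflurane was 1.41-fold higher than its own control and 1.86-fold lower than the other one.

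*Nr1h4*, the bile acid receptor FXR (minus strand, chr7:30003429-30162056), had a sevoflurane pair of 77.3 and 102 TPM and a desflurane pair of 92.2 and 105. The controls differed by 1.19-fold, and the 6 hour libraries were 1.32-fold and 1.14-fold above their own controls. The tables also hold assembled transcripts without an annotated gene symbol, and the one over *Nr1h4* on its strand had TPM values of 77.2, 74.8, 58.8 and 111 in the same order. With these values the log2 change was -0.04 with sevoflurane instead of 0.40, and 0.91 with desflurane instead of 0.19.

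*Rxra* (plus strand, chr3:6211816-6295354) had a sevoflurane pair of 265 and 272 TPM and a desflurane pair of 248 and 349. Its level with desflurane was 1.40-fold the own control and 1.32-fold the other control, whereas the log2 changes with sevoflurane were 0.04 and 0.13. *Rxrb*, a paralog with the same role as a dimer partner (plus strand, chr20:3823188-3829136), had a sevoflurane pair of 7.79 and 7.69 and a desflurane pair of 6.71 and 8.37. *Rxrb* differed by at most 1.25-fold between any 6 hour library and any control.

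*Hnf4a*, a master regulator of hepatocyte genes (plus strand, chr3:159902441-159965003), had a sevoflurane pair of 246 and 226 TPM and a desflurane pair of 199 and 216. Both 6 hour values lay between the controls. FPKM per unit of coverage was 1.64 to 1.71 times the library median for *Hnf4a* and at most 1.01 times for the other receptors, so the coverage of *Hnf4a* is not on the scale of its TPM value. *Nr5a2*, which encodes LRH-1 (minus strand, chr13:53753137-53870116), had 49.0, 40.2, 41.8 and 48.5 in the same order. Its sevoflurane library was 1.22-fold lower than its own control and 1.04-fold lower than the other.

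*Esrra*, the estrogen-related receptor that acts with PGC-1 coactivators on mitochondrial genes (minus strand, chr1:222168729-222178725), had TPM values of 9.44 and 9.30 in the sevoflurane and desflurane controls. After 6 hours it was 13.7 with sevoflurane and 11.3 with desflurane. The controls differed by 1.01-fold, and the 6 hour values were 1.45-fold and 1.22-fold above their own controls. *Esrra* overlaps *Trmt112*, a gene of the opposite strand, by 50 bases, and *Trmt112* had TPM values between 45.4 and 70.1. Whether strand was used in counting is not given in the sources used here.

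*Nr2f2*, known for its role in venous endothelial identity (minus strand, chr1:131448737-131454689), varied least. Its TPM values were 49.3 and 46.9 for the sevoflurane pair, and 45.7 and 51.2 for the desflurane pair. None of the 8 matched endothelial marker genes was called with either agent, and their summed TPM values were 258, 245, 250 and 284 in the same order.

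Among the 10 receptors, 4 were higher and 6 were lower with sevoflurane than in its own control, with a median log2 change of -0.05. Of all genes, 56.5% were higher and 43.5% lower by any amount, and after the scaling described next 3 receptors were higher and 7 lower. Over the 9136 genes with TPM values above 2 in all 4 libraries, the median was 0.05. All 10 receptors were higher with desflurane than in its own control, with a median log2 change of 0.25 beside 0.12 over all genes. The share of all genes that were higher by any amount was 66.6% for desflurane, and 33.4% were lower. After median-of-ratios scaling, which removes this shift, 9 of 10 were higher with desflurane, with a median of 0.12, and *Hnf4a* was at -0.01. Against the sevoflurane control, only 6 were higher with desflurane, and the median was 0.08 (64% of all genes were higher and 36% lower).

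The controls themselves differed in these genes. In the desflurane control, 9 of the 10 receptors were lower than in the sevoflurane control, with a median log2 difference of -0.22 and *Nr1h4* as the exception. Over all genes that reached the TPM limit, 54.9% were lower and 45.1% higher in the desflurane control, and the median over the 9136 genes was -0.03.

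**Figure D2:**
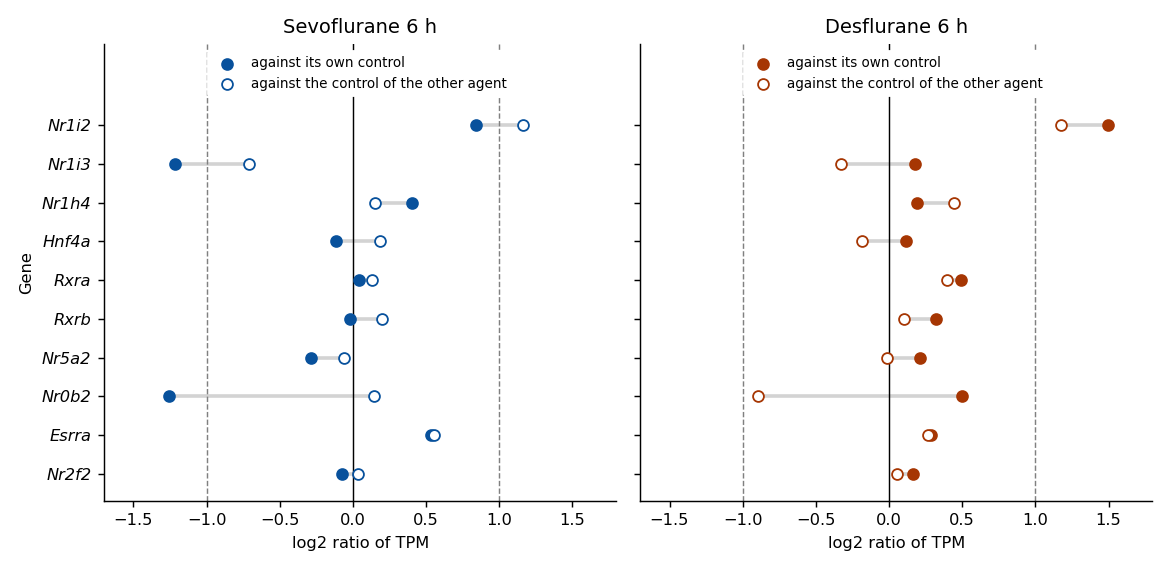
Log2 ratio of the TPM value after 6 hours to that of a control for each receptor, with sevoflurane at left and desflurane at right. Filled points use the own control, open points use the control of the other agent, and dashed lines mark 2-fold. *Nr1i2* is to the right of 0 at all 4 points, *Nr1i3* is to the left with sevoflurane for both controls (-1.22 and -0.71), and *Nr0b2* crosses 0 when the control is changed (-1.25 and 0.14 with sevoflurane).

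Markers of other cell types were examined beside the called receptors. In bulk liver, fewer cells of a type and less RNA per cell cannot be told apart. The 8 hepatocyte markers, which include *Alb* and *Apoa1*, were not called with either agent, and their median log2 changes were -0.05 with sevoflurane and 0.10 with desflurane. Of the 8 leukocyte markers, 5 were downregulated with sevoflurane and 0 with desflurane, and none was at 0 in any library. When the controls were exchanged, 3 were downregulated with sevoflurane and 0 with desflurane. Over all genes, 3.3% were downregulated with sevoflurane relative to its own control and 2.59% relative to the desflurane control. The summed TPM values of the leukocyte markers were 593 and 238 for the sevoflurane pair, and 403 and 471 for the desflurane pair. *Nr1i3* had the same order of libraries. The part of leukocytes in the *Nr1i3* values was not tested. Of the 10 stellate cell and fibroblast markers, 1 (*Hand2*) was upregulated with sevoflurane, beside 2.23% of all genes. With exchanged controls, 0 of them were upregulated and 1 was downregulated with sevoflurane, and 1 was upregulated with desflurane. Of the 4 matched cholangiocyte markers, 0 were called with either agent.

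Of the 6 pancreatic acinar markers, 5 were downregulated with sevoflurane relative to its control, and the same number were lower in the desflurane control than in the sevoflurane control by the limits. Over all genes, 3.3% were downregulated with sevoflurane, and 1.17% were lower in the desflurane control than in the sevoflurane control. *Ctrb1* and *Prss1* had TPM values of 8.94 and 6.58 in that control, and these genes and *Pnlip* were listed at 0 elsewhere. The summed values were 47.4 in the sevoflurane control and between 15.2 and 18.5 in the other libraries, where *Cela1* made up most of the sum. *Nr0b2* was also highest in that control. The part of pancreatic tissue in the *Nr0b2* values was not tested.

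The genes with the most similar patterns were searched for the 3 called receptors, which also had the widest range over the 4 libraries. Likeness was measured as the largest difference, over the 4 libraries, between log2 TPM values centred on their mean, among 9136 genes. The closest to *Nr1i2* were *Slc25a32* (0.04), *Pnpla2* (0.08) and *Ech1* (0.09). The TPM values of *Ech1*, an enzyme of fatty acid oxidation, were 111 and 201 for the sevoflurane pair, and 83.6 and 262 for the desflurane pair. *Nr1i3* was closest to *RT1-DMb* (0.08), *Aacs* (0.09) and *Tfec* (0.11). *RT1-DMb*, which takes part in peptide loading of MHC class II, had 18.7, 8.47, 13.3 and 16.3 in the same order. For *Nr0b2*, the closest were *Hsd3b5* (0.10), *Sgk1* (0.17) and *Tifa* (0.27), and *Hsd3b5*, a steroid dehydrogenase of the liver, had values of 150, 68.6, 63.1 and 87.9. With 4 libraries, these are descriptions only.

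*Nr1i3* lies close to a gene for an abundant secreted protein. *Apoa2*, which encodes apolipoprotein A-II, starts 5.89 kb downstream on the same strand, and *Tomm40l* lies between them on the opposite strand. The neighbours within 15 kb were examined after their values had been seen. *Apoa2* had a sevoflurane pair of 1644 and 674 TPM and a desflurane pair of 1288 and 1282. It was downregulated with sevoflurane by the same rule, with a log2 change of -1.29 beside -1.22 for *Nr1i3*. Against the desflurane control, *Apoa2* was within the limit (-0.93), as was *Nr1i3* (-0.71). With sevoflurane relative to its own control, the log2 change was -0.13 for *Tomm40l* and -0.96 for *Fcer1g*, a leukocyte gene. Relative to the desflurane control, it was 0.41 and -0.27. *Gsk3b*, the only neighbour of *Nr1i2* within 15 kb, was at -0.17 with sevoflurane and 0.17 with desflurane, and *Nudc*, the only one of *Nr0b2*, was at -0.01 and -0.08.

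**Figure D3:**
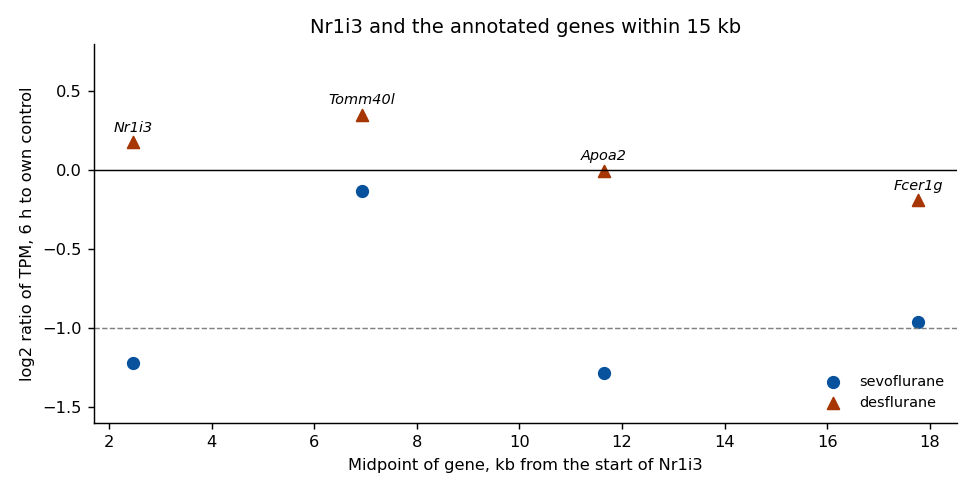
Log2 ratio of TPM after 6 hours to the own control (vertical axis) for *Nr1i3* and the annotated genes within 15 kb, at the distance of their midpoint from the start of *Nr1i3* in kb (horizontal axis). The dashed line marks a 2-fold decrease. With sevoflurane (circles), *Nr1i3* and *Apoa2* lie below the line and *Tomm40l* between them is at -0.13. With desflurane (triangles), *Nr1i3*, *Apoa2* and *Fcer1g* are at 0.18, -0.01 and -0.19.

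The remaining nuclear receptors were examined with the same rule. Of 38 listed, 34 were matched in the tables and 21 had TPM values above 2 in all 4 libraries. Over all genes that reached the TPM limit, 3.3% were downregulated with sevoflurane and 1.48% with desflurane. When the controls were exchanged, 1 of these receptors was upregulated with sevoflurane and 1 was downregulated with desflurane, beside 2.52% and 1.58% of all genes. *Pparg*, the lipid storage receptor, was the only one called against the own control, and it was downregulated with both agents. Its TPM values were 6.32 and 3.11 for the sevoflurane pair, and 5.94 and 2.95 for the desflurane pair. Both 6 hour values were below both controls, although the changes were only just past 2-fold (log2 changes of -1.02 and -1.01), and against the desflurane control sevoflurane did not pass (-0.93). The most abundant of these receptors were *Nr1d1* (REV-ERB alpha, 116 to 195), *Nr1h3* (LXR alpha, 80.8 to 99.2) and *Ppara* (53.4 to 92.8). *Ppara*, the fatty acid receptor induced by fasting, had 70.7 in both sevoflurane libraries and a desflurane pair of 53.4 and 92.8.

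Of 20 listed coregulators, 19 were matched, and all 19 had TPM values above 2 in all libraries. None was called with sevoflurane, and *Ppargc1a* and *Ppargc1b* were upregulated with desflurane, beside 2.79% of all genes. *Ppargc1a* encodes PGC-1 alpha, a fasting-induced coactivator of HNF4A, PXR, CAR and ERR alpha. Its TPM values were 4.23 and 5.08 for the sevoflurane pair, and 2.90 and 13.5 for the desflurane pair. *Ppargc1b* had 3.71, 4.06, 3.59 and 7.82. Both genes also passed the limits when desflurane was compared with the sevoflurane control, where 2.84% of all genes were upregulated. The 3 most abundant coregulators, *Ncoa4*, *Ncor1* and *Ncoa2*, were not called.

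**Figure D4:**
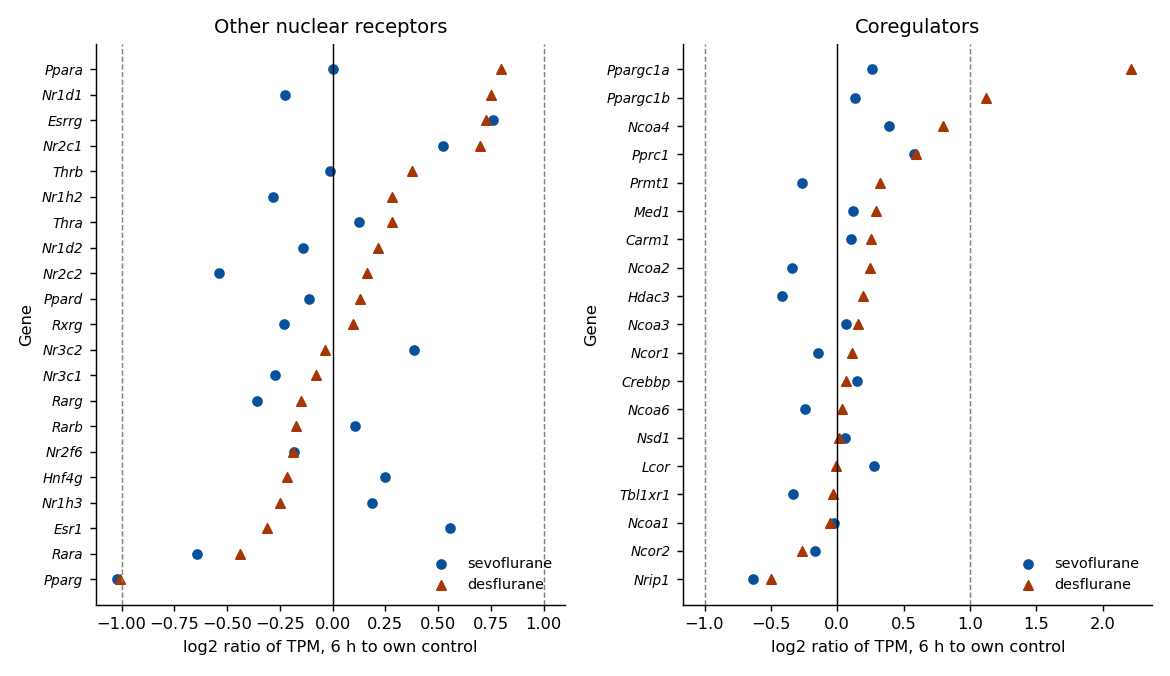
Log2 ratio of TPM after 6 hours to the own control for the other nuclear receptors (left) and the coregulators (right) with TPM values above 2 in all libraries, with sevoflurane as circles and desflurane as triangles. Dashed lines mark 2-fold. *Pparg* is at -1.02 and -1.01, and *Ppargc1a* and *Ppargc1b* are past 2-fold with desflurane only (2.21 and 1.12).

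Among 14 matched partners of CAR and PXR in the cytosol and kinases upstream of them, 1 was called. Over all genes, 2.79% were upregulated and 1.48% downregulated with desflurane, and 2.23% and 3.3% with sevoflurane. *Hsp90aa1*, a chaperone of the cytosolic CAR complex, was downregulated with desflurane, and its TPM values were 68.1 and 117 for the sevoflurane pair, and 80.1 and 39.5 for the desflurane pair. Against the sevoflurane control, desflurane was within the limit (log2 change of -0.79). *Hsp90ab1*, a paralog and the most abundant gene of this list, had 320, 422, 341 and 243, so both chaperones were highest with sevoflurane and lowest with desflurane. *Dnajc7*, the CAR retention protein, had 23.1, 28.9, 23.6 and 27.8.

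The target genes of CAR and PXR were examined beside the receptors. Of 26 matched targets, 9 were upregulated with sevoflurane and 11 with desflurane, and 0 were downregulated, whereas 2 were downregulated when sevoflurane was compared with the desflurane control. The shares of all genes that were upregulated are 2.23% and 2.79%, as given above, and 2.59% were downregulated with sevoflurane relative to the desflurane control. The median log2 change of the 25 targets above the TPM limit in all libraries was 0.53 with sevoflurane and 0.69 with desflurane, and it was 0.53 and 0.45 when the controls were exchanged. These genes were listed with earlier results of these libraries in view. *Por*, the electron donor of the P450 enzymes, had a sevoflurane pair of 144 and 642 TPM and a desflurane pair of 119 and 415. *Ces2c*, a carboxylesterase, had 11.8, 38.9, 9.62 and 26.7. *Por* and *Ces2c* were highest in the 6 hour sevoflurane library. The called targets *Gadd45b*, *Abcc3*, *Cyp3a9* and *Cyp1a2* had higher values in the 6 hour desflurane library than in the 6 hour sevoflurane library. All other called targets were higher in the 6 hour sevoflurane library than in the 6 hour desflurane library. *Cyp3a18* and *Cyp3a9*, which are targets shared with PXR, were upregulated relative to the own control with desflurane and not with sevoflurane. The controls of these genes differed, with 142 for desflurane and 476 for sevoflurane for *Cyp3a18*, and 11.2 and 18.2 for *Cyp3a9*. When the controls were exchanged, *Cyp3a18* passed the limit with sevoflurane (log2 change of 2.08) and not with desflurane (0.27), whereas *Cyp3a9* still passed with desflurane (1.17) and not with sevoflurane (0.50). The Cyp3a genes are close paralogs that could have shared reads.

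Of 16 matched targets of FXR and SHP, 1 was called. *Cyp7a1*, the rate-limiting enzyme of bile acid synthesis that SHP represses, was upregulated with sevoflurane, with a sevoflurane pair of 83.5 and 194 TPM and a desflurane pair of 70.4 and 101. It was also past the limit against the desflurane control (log2 change of 1.46). Of the 15 targets above the TPM limit in all libraries, 6 were higher with sevoflurane than in its own control, with a median log2 change of -0.07. *Cyp8b1*, another gene of this list, had a sevoflurane pair of 175 and 130 TPM and a desflurane pair of 204 and 310. The part of SHP in the *Cyp7a1* values was not tested. *Abcb11*, the bile salt export pump induced by FXR, had 308, 295, 284 and 343. Among 20 target genes of HNF4A, *Apoa2* was downregulated with sevoflurane and *G6pc*, an enzyme of glucose release, was upregulated with desflurane, also against the sevoflurane control. Against the desflurane control, *Apoa2* was within the limit (-0.93), and 1 other target was upregulated with sevoflurane. Over all genes, 2.23% were upregulated and 3.3% downregulated with sevoflurane relative to its own control, and 2.79% and 1.48% with desflurane. Relative to the desflurane control, 2.52% were upregulated and 2.59% downregulated with sevoflurane.

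Counts for the target lists of other receptors depended on the control. Of all genes, 2.23% were upregulated and 3.3% downregulated with sevoflurane relative to the own control, and 2.79% and 1.48% with desflurane. With exchanged controls, the shares were 2.52% and 2.59% with sevoflurane, and 2.84% and 1.58% with desflurane. Of 16 targets of PPAR alpha, 4 were upregulated with sevoflurane, and 5 were upregulated and 2 downregulated with desflurane. After the controls were exchanged, 3 were upregulated and 1 was downregulated with sevoflurane, and 5 were upregulated and 0 downregulated with desflurane. Of 13 matched targets of the glucocorticoid receptor, 2 were upregulated and 1 was downregulated with sevoflurane, and 6 were upregulated and 2 downregulated with desflurane. The exchange of controls gave 6 upregulated and 1 downregulated with sevoflurane, and 2 upregulated and 1 downregulated with desflurane. Of 10 matched targets of the LXRs, 1 was downregulated with sevoflurane, and 2 were upregulated and 2 downregulated with desflurane. With exchanged controls, 1 was downregulated with sevoflurane and 0 were called with desflurane. The transcript of the glucocorticoid receptor itself, *Nr3c1*, was between 45.4 and 54.9 in the 4 libraries, and that of *Nr1h3* was not called either.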

How the data were processed

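The authors trimmed paired-end reads with sickle, mapped them to rn6 with HISAT2, sorted them with SAMtools and ran StringTie with the rn6 refGene annotation. The labels and the methods name different Illumina stranded total RNA kits. The deposited TPM values are a signal on a scale on which the assembled rows alone add up to 1000000 and the annotated rows add between 779824 and 813454, so the same reads can stand in both. The deposited FPKM values are normalized for library size, and the deposited coverage is a signal that is not. Annotated rows longer than 200 base pairs were used, and TPM values with the same symbol were summed. The ratio of FPKM to coverage corresponded to 4.47 to 5.40 Gb of aligned sequence per library. The files give no read counts, and no counting intervals were calculated.

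Genes were called with a TPM limit of 2 and a 2-fold limit without a pseudocount. No test was made with 1 library per condition. The receptors and lists were chosen with earlier results of these data known. Named genes are the 10 receptors, called genes and the 3 most abundant of each list, and the 3 most similar patterns. *Dnajc7*, *Abcb11*, *Cyp8b1*, *Nr3c1* and neighbours were named after their values were seen. Alternatives covered limits, pseudocounts, scaling, FPKM, controls and the choice of rows. Calculations used Python 3.11.15, numpy 2.4.6 and pandas 2.3.3, and the rule for calls was first checked on simulated tables. Some listed genes are not reported here.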

Additional observations from a re-analysis of the deposited data

Results flagged for a closer look

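Some genes were called with 1 agent and were in the opposite direction with the other, each relative to its own control. No test of these differences was possible with 1 library per condition. The log2 change with desflurane minus that with sevoflurane was 1.40 for *Nr1i3* (-1.22 with sevoflurane and 0.18 with desflurane) and 1.75 for *Nr0b2* (-1.25 and 0.50). Among the listed partners and targets of CAR, PXR, FXR and SHP, it was -1.81 for *Hsp90aa1* (0.79 and -1.02), 2.06 for *Cyp3a9* (-0.19 and 1.87), and 1.18 for *Cyp1a2* (-0.13 and 1.04). The target lists of the other receptors were not searched for this. They also hold such genes, among them *Fgf21* (3.32 and -0.75) and *Abcg5* (-0.76 and 1.49). The value of *Nr1i3* with desflurane was -0.33 against the sevoflurane control, and that of *Nr0b2* was -0.90, so with that control both were negative, as with sevoflurane. When the controls were exchanged, *Cyp1a2* was at 0.63 with sevoflurane and 0.29 with desflurane, so it was not called and both values were positive. *Cyp3a9* was then also positive with both agents (0.50 and 1.17).

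Transcripts assembled on the opposite strand of a receptor were a signal outside the comparisons of annotated genes. Over *Nr1h4*, their TPM values were 3.49-fold higher after 6 hours of desflurane than in the desflurane control (72.3 and 20.7), but the library with desflurane had 2 such transcripts and the control had 1. Over *Nr5a2*, they were 2.33-fold higher (8.98 and 3.86), again with 2 transcripts and 1. A change in the other direction was present over *Hnf4a* with sevoflurane. There the opposite-strand values were more than 2-fold lower after 6 hours than in the sevoflurane control. That control had 3 such transcripts over *Hnf4a*, and the 6 hour sevoflurane library had 1.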

How the results depend on the processing

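With the control of the other agent, 1 receptor was called with sevoflurane (*Nr1i2*, upregulated) instead of 2, *Nr0b2* changed direction to 0.14, and the median log2 changes were 0.15 with sevoflurane and 0.080 with desflurane. With the mean of the 2 controls, 0 receptors were called with sevoflurane. A fold limit of 1.5, or the assembled rows named next, gave 3 with sevoflurane. Desflurane gave 1 called receptor, *Nr1i2*, under every alternative that was run. The TPM limits that were tried could not change a call, because every receptor exceeded them in all libraries. With the assembled row in place of the annotated row, an alternative chosen after seeing the data, the desflurane median was 0.44. The cause was not tested. Adding assembled rows to annotated ones counts reads more than once. Over 11 alternatives, the sign was the same throughout for 4 of the 10 receptors with sevoflurane (*Nr1i2*, *Nr1i3*, *Nr5a2* and *Esrra*) and for 6 with desflurane (*Nr1i2*, *Nr1h4*, *Rxra*, *Rxrb*, *Esrra* and *Nr2f2*). Some of these alternatives, such as the pseudocounts, could not change a sign. Taking the row with the highest TPM or dropping the length filter changed no value, because each receptor had 1 annotated row. The log2 change of *Nr1i3* with sevoflurane was between -1.27 and -0.71. No paired analysis was possible because each condition has 1 library. The tables hold no read counts, and coverage was lowest for *Rxrb* and *Esrra*.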
